A study of Mus musculus with 6 samples.

Results

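The regions described here are p65 peaks that were called in epidermal cells of aged mice after IL-17A/F blockade and that overlapped, by 1 bp or more, no peak called in adult mice or in aged mice given control IgG. They were chosen by overlap of the authors' peak calls alone, which makes the calls part of the rule. There were 762 such aged/anti-IL-17A/F-only peaks among the 6014 aged/anti-IL-17A/F peaks, or 12.7% (95% Wilson interval, 11.9 to 13.5%). The 3 lists together held 18708 peaks. The conditions, all in C57bl/6J mice, were adult mice without treatment, aged mice given control IgG and aged mice given neutralising IL-17A and IL-17F antibodies, each over 12 weeks. The labels give the age of the antibody-treated mice as Aged+ and that of the IgG mice as Aged. In each condition the reads of 4 mice were pooled before peaks were called, so there is 1 list per condition and no replicate. No test between conditions was therefore possible, and the intervals below cover counting error over peaks only, since peaks of 1 pool are not replicates. The pools were brought to the same number of reads by the authors, but the reads behind single peaks are unknown from these lists, and the 3 input libraries were not analysed here. The cells were a trypsin suspension of epidermis, which can hold cells other than keratinocytes. Of the 8 keratinocyte marker genes 6 were nearest to at least 1 aged/anti-IL-17A/F peak, as were 4 of 15 marker genes of other cells and 3648 of all 21000 protein-coding genes, although a p65 peak at a gene measures neither its expression nor a cell type.

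The labels and the peak names of these lists disagree. All 8525 peak names in the list labelled adult begin with the word Treated, as do all 6014 names in the list labelled aged/anti-IL-17A/F, whereas 0 of 4169 names in the aged/IgG control list do. The study's annotation of its adult peaks carries the same names, so it does not settle which is right. The labels were followed throughout. If these lists were exchanged, the 762 peaks would be those of adult mice only, and the peaks found only after blockade would be 3002 of 8525 (35.2%, 34.2 to 36.2%). Those 3002 peaks had a median fold enrichment of 3.03, and their values are given beside the κB, promoter, GC and repeat results. The remaining results are given for the lists as labelled only.

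p65, encoded by Rela, is the transactivating subunit of the canonical NF-κB dimer. Inhibitors of the IκB family hold the dimer in the cytoplasm until IκB kinase marks them for degradation, after which p65 enters the nucleus and binds κB sites in promoters and enhancers. IL-17A and IL-17F signal through the receptors IL-17RA and IL-17RC to this pathway in keratinocytes, where it drives chemokine, cytokine and antimicrobial genes. NF-κB also induces genes of its own inhibitors, which limits the response, and a balanced activity is needed for normal epidermal differentiation.

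The sequences that follow are the 8 aged/anti-IL-17A/F-only peaks of highest fold enrichment among those with a match to the 10-base NF-κB consensus within 100 bp of the summit. They show which κB letters lay near the summits of the strongest of these peaks, at 4 bp (Bahd1) to 59 bp (Spint2) from the summit, and each holds a match because it was chosen for one. Of the 10 strongest peaks, the 4 nearest to 4930447J18Rik, Mir1971, Dstn and Gm6551 had none. Each is the plus strand of mm10 (GRCm38), 60 bases to each side of the summit and extended where the match lay at the edge, and capitals mark the match on either strand.
Gm36851, intergenic, chr5:101163245-101163365: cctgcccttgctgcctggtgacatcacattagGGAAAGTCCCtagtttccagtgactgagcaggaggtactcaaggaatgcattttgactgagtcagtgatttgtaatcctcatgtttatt
Hrh1, intron, chr6:114421227-114421347: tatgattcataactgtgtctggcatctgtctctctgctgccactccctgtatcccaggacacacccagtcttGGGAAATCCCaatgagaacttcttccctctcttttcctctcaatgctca
Rere, intron, chr4:150338954-150339074: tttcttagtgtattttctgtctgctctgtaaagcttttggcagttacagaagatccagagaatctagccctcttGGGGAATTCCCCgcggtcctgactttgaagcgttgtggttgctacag
Lrp8os2, intron of Lrp8, chr4:107820071-107820191: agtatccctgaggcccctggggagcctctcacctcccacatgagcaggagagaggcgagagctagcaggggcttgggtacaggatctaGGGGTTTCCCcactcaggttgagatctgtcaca
Thy1, intergenic, chr9:43998442-43998562: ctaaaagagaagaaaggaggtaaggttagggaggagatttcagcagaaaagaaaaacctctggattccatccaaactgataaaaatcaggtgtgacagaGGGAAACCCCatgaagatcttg
Spint2, intron, chr7:29276886-29277015: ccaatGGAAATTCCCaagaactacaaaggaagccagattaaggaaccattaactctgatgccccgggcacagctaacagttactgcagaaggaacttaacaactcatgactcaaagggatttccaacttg
Bahd1, intergenic, chr2:118895151-118895271: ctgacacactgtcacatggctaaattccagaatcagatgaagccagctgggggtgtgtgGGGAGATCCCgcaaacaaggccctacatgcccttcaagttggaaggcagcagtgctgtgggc
Mir701, intron of Ttc28, chr5:111082001-111082121: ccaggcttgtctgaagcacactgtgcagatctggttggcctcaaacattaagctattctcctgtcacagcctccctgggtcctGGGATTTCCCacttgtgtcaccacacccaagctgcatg

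The Rere window held 3 overlapping matches in 1 palindromic stretch. A further 4 sequences come from peaks nearest to genes of the NF-κB pathway itself, and they were chosen after their values were seen.
Nfkbie, intron, chr17:45557518-45557638: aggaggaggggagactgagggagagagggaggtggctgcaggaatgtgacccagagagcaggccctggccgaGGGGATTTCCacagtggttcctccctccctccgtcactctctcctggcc
Nfkbie, intron, chr17:45558042-45558162: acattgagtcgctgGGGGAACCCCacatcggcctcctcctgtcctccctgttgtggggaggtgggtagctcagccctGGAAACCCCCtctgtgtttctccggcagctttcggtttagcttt
Nfkbiz, intergenic, chr16:55788364-55788484: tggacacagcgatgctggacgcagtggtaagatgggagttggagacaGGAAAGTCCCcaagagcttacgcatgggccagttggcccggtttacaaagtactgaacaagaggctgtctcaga
Ikbkb, intergenic, chr8:22712517-22712637: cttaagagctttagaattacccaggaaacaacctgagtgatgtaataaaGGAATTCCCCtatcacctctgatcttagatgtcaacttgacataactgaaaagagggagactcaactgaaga
The second Nfkbie peak held 2 matches and the other 3 peaks held 1 match each. A match describes the letters in the window and is not by itself a binding site.

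The 762 peaks were weak for this list. Fold enrichment is the signal of a peak over the background that the peak caller estimated, and whether the inputs entered that background is not given in the sources used here. The fold enrichment of the 762 peaks had a median of 2.98 and a range of 1.99 to 4.88, whereas the other 5252 aged/anti-IL-17A/F peaks had a median of 3.88 and a range of 1.93 to 22.3. Their −log10 q had a median of 7.62 (2.08 to 23.6) against 16.7, and their median width was 344 bp against 465 bp. Of the 762 peaks, 203 had a −log10 q of at least 10 and 6 had one of at least 20. The share of aged/anti-IL-17A/F-only peaks was 28.1% in the lowest decile of fold enrichment, 13.3% in the fifth and 0.498% in the eighth, and no peak of the upper 2 deciles was among them. Because overlap of calls chose these peaks, the values of the calls describe them and support nothing further.

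**Figure D1:**
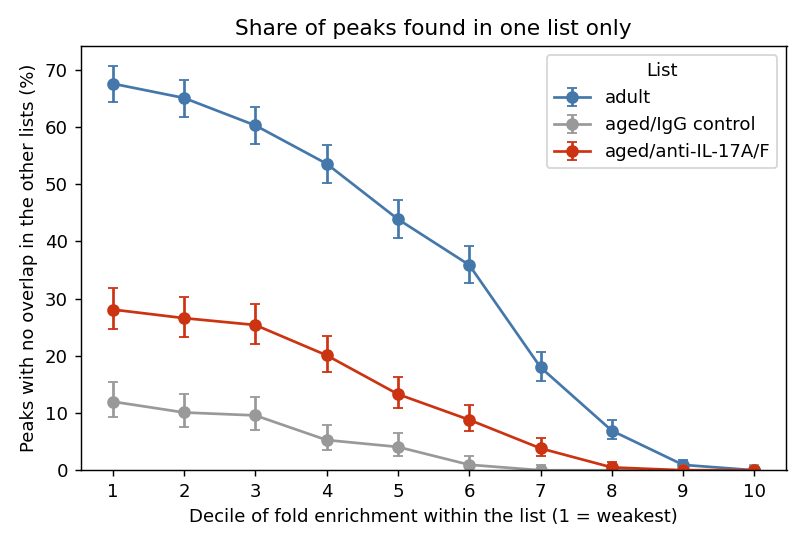
Share of peaks (%) of each list that overlap no peak of the other 2 lists, by decile of fold enrichment within the list, with 95% Wilson intervals. In all 3 lists the share falls with peak strength, for aged/anti-IL-17A/F from 28.1% in the lowest decile to 0.498% in the eighth.

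The same rule applied to the other lists gave 3002 adult-only peaks of 8525 (35.2%) and 175 aged/IgG control-only peaks of 4169 (4.2%, 3.63 to 4.85%). These shares ranked in the order of the lengths of the lists. With each list reduced to its 4169 peaks of highest −log10 q, the shares were 13.4% for adult, 16.2% for aged/IgG control and 13.6% for aged/anti-IL-17A/F, so the order of the lists changed. The aged/IgG control list already had that number, so strength changed along with length. The peaks in 1 list only then had median fold enrichments of 4.02 for adult, 3.06 for aged/IgG control and 3.55 for aged/anti-IL-17A/F. Of the other aged/anti-IL-17A/F peaks, 3503 overlapped both lists, 1647 overlapped the adult list only and 102 overlapped the aged/IgG control list only.

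Of the 762 peaks, 246 (32.3%, 29.1 to 35.7%) lay within 10 kb of a peak of the other conditions. The median gap was 27706 bp to the nearest adult peak and 75515 bp to the nearest aged/IgG control peak. To the nearest other peak of their own list it was 41285 bp. A minority were close, with 49 peaks (6.43%, 4.9 to 8.4%) within 500 bp and 83 (10.9%, 8.87 to 13.3%) within 1000 bp of a peak of either list. Just inside the rule were peaks nearest to Ets2, Ppp4r3a and Dmrt1i, with gaps of 18, 22 and 26 bp to an adult peak. Just outside it were peaks nearest to Rps18, Ksr1 and Gpr161, which overlapped another list by 17, 19 and 34 bp.

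The 10 strongest aged/anti-IL-17A/F-only peaks had fold enrichments of 4.31 to 4.88, and none was at a promoter, that is, 1 kb or less from a transcription start site. The strongest was nearest to the noncoding RNA 4930447J18Rik (chr14:47992113-47992505, fold enrichment 4.88, −log10 q 23.6) and lay 190230 bp from the nearest adult peak. The next was nearest to the noncoding RNA Gm36851 (fold enrichment 4.81) and lay 561231 bp from any adult peak. The peak nearest to Mir1971 followed with 4.60 (chr14:78244782-78245161). These 3 peaks were intergenic, and each held an AP-1 match as well as, for Gm36851, a κB match.

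Among protein-coding genes, the strongest peak lay in an intron of Hrh1, the histamine H1 receptor, at chr6:114421051-114421533 with a fold enrichment of 4.53, and neither other list had a peak assigned to Hrh1. A peak in an intron of Rere, a transcriptional corepressor gene, had a fold enrichment of 4.40 and lay 12375 bp from the nearest aged/IgG control peak. Peaks nearest to Dstn, the actin-depolymerising factor destrin, and to Thy1, a glycoprotein of T cells and fibroblasts, each had 4.33. The Dstn peak lay 25143 bp and the Thy1 peak 44808 bp upstream of the start site, and both were intergenic.
Spint2, an inhibitor of the epithelial protease matriptase, had a peak of 4.32 in an intron, 4267 bp from an adult peak. Of the 10 peaks, 6 held a κB match and 4 an AP-1 match.

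Over all positions, the share of aged/anti-IL-17A/F-only peaks with an exact κB match was not detectably different from that of other peaks of equal strength in the same list, whereas it was lower near start sites and with a mismatch allowed. A match to the 10-base NF-κB consensus lay within 100 bp of the summit in 182 of 762 peaks (23.9%, 21.0 to 27.0%). The share was 36.5% in the other aged/anti-IL-17A/F peaks, and 22.8% (21.3 to 24.4%) once these were weighted to the same deciles of fold enrichment. Equal strength here means equal fold enrichment only, and the 762 peaks remained narrower than the weighted others (mean width 365.6 against 425.7 bp, difference −60.0, −66.9 to −53.1). The difference at equal strength was 1.05 percentage points (95% interval, −2.35 to 4.45). With the others weighted also by position within or beyond 1 kb of a start site, it was 0.132 points (−3.3 to 3.56). Windows of the same length placed 2000 bp to either side of the 762 summits held a match in 2.76% on average. The matches lay a median of 27 bp from the summit, against 23 bp in the other peaks. They comprised 47 distinct sites, of which GGGGATTTCC in 25 peaks and GGGACTTTCC in 21 were the most frequent. With 1 mismatch allowed the share was 59.2%, which was 6.7 percentage points below the weighted others (difference −6.7, −10.6 to −2.75). The share of flanking windows was not computed for this looser match.

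The κB share rose with peak strength in both sets of peaks. In the lowest decile of fold enrichment 15 of 169 aged/anti-IL-17A/F-only peaks held a match (8.88%), against 15.0% of the others. In the fourth decile the shares were 31.4% (23.8 to 40.1%) and 24.0% (20.4 to 28.0%). In the seventh, 15 of 23 peaks held a match (65.2%, 44.9 to 81.2%), against 36.7% (32.8 to 40.7%) of the others. In that decile 4.35% of the aged/anti-IL-17A/F-only peaks and 26.8% of the others lay within 1 kb of a start site. The eighth decile held only 3 aged/anti-IL-17A/F-only peaks, 1 of them with a match. Among the 203 peaks with a −log10 q of at least 10 the share was 40.9%, which exceeded the weighted others by 9.4 percentage points (2.28 to 16.5). With lists of equal number the overlap rule was applied anew, so the resulting 566 peaks are not a subset of the 762. Their fold enrichment reached 5.43, against 4.88 in the 762. Also restricted to high −log10 q, they had a share of 32.5% and a difference of 0.461 points (−4.1 to 5.02). Of the 100 strongest of the 762 peaks, 49 held a κB match, 19 an AP-1 match and 9 lay within 1 kb of a start site.

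**Figure D2:**
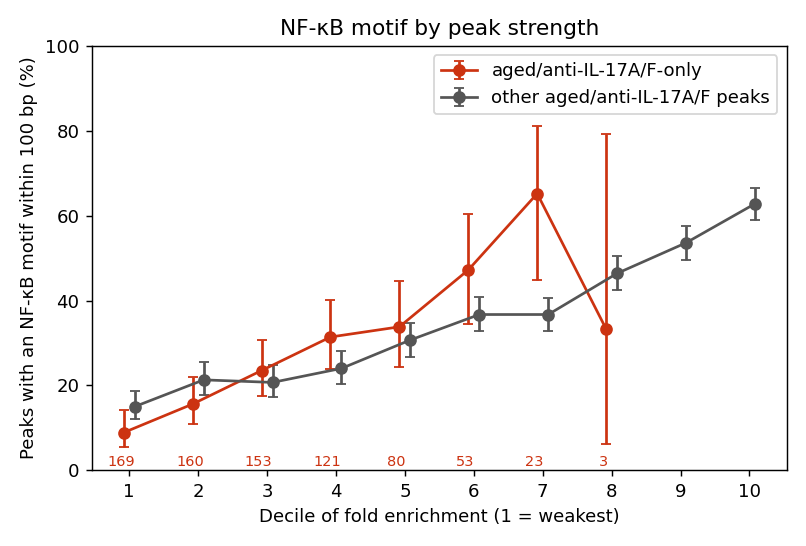
Share of peaks (%) with an NF-κB match within 100 bp of the summit by decile of fold enrichment, for the aged/anti-IL-17A/F-only peaks (red, numbers of peaks along the axis) and the other aged/anti-IL-17A/F peaks (grey), with 95% Wilson intervals. The red share is below the grey one in the lowest decile (8.88% against 15.0%) and above it in the seventh (65.2% against 36.7%).

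The κB share differed by distance from genes. Beyond 1 kb of a start site 167 of 524 aged/anti-IL-17A/F-only peaks held a match (31.9%, 28.0 to 36.0%), against 27.4% of the weighted others, a difference of 4.48 percentage points whose interval reached 0 (−0.0216 to 8.98). Within 1 kb only 15 of 238 did (6.3%, 3.86 to 10.1%), against 15.7%, a difference of −9.44 points (−13.4 to −5.53). The adult-only peaks were below other adult peaks of equal strength in both places, by −2.91 points (−5.66 to −0.156) within 1 kb and by −7.11 points (−9.89 to −4.33) beyond it. The aged/IgG control-only peaks were also below their own list, by −12.9 points within 1 kb (3 of 59 peaks with a match) and −12.6 points beyond it (20 of 116). Over all positions the difference was −5.4 points (−7.41 to −3.39) for adult-only and −12.2 points (−17.6 to −6.79) for aged/IgG control-only peaks. Whether these differences themselves differ between the lists was not tested, since the lists share most of their other peaks. With the lists exchanged, the value for the peaks found only after blockade would be that of the adult-only peaks.

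**Figure D3:**
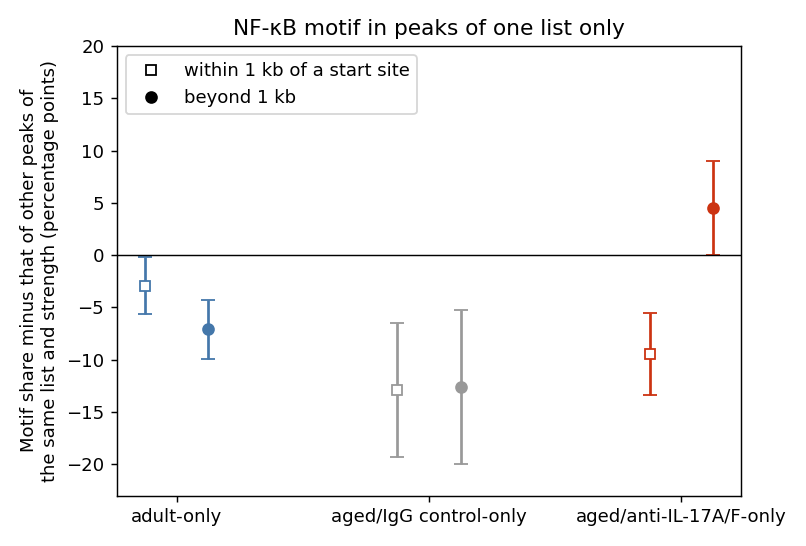
Difference in κB share (percentage points) between the peaks found in 1 list only and the other peaks of that list at equal fold enrichment, within 1 kb of a start site (open squares) and beyond it (filled circles), with 95% intervals. The aged/anti-IL-17A/F-only peaks beyond 1 kb (4.48) are the only class above 0, with an interval that reaches 0.

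Sites of other factors were searched on both strands in the same windows. AP-1, the partner of NF-κB at many inducible enhancers (TGACTCA), was found in 90 peaks (11.8%, 9.71 to 14.3%), against 10.3% of the weighted others and 4.13% of flanking windows. Its difference of 1.54 points had an interval of −1.03 to 4.11. The C/EBP letters (TTGCNNAA) were in 10.9% against 8.4%, a difference of 2.5 points (0.0455 to 4.95), and 6.5% of the flanks held them. The interval of this difference included 0 both within 1 kb of a start site (−0.396 points, −3.59 to 2.8) and beyond it (2.87, −0.415 to 6.15).
The letters of ETS, SP/KLF and NRF1 were less frequent than in the weighted others. ETS (CCGGAAGT) was in 7 peaks (0.919% against 2.23%, difference −1.31 points, −2.21 to −0.414) and SP/KLF (GGGGCGGG) in 42 (5.51% against 7.82%, difference −2.31, −4.25 to −0.365). NRF1 (GCGCATGCG) was in 0 of 762, which allows a share of up to 0.394% by a limit of 3 counts (Wilson upper bound, 0.502%), and in 34 of the 5252 others. Within 1 kb of a start site, SP/KLF was in 13.9% of the aged/anti-IL-17A/F-only peaks and 14.5% of the weighted others, with an interval of the difference of −5.66 to 4.36, while beyond 1 kb the difference was −1.57 points (−3.0 to −0.133). For ETS it was −2.41 points (−4.69 to −0.123) within 1 kb and −0.161 (−0.815 to 0.493) beyond it.
The intervals of the difference included 0 for CRE (TGACGTCA), NF-Y (CCAATCA), RUNX (TGTGGTT), TEAD (GGAATGT), GRHL (AACCNGTT) and the E-box (CACGTG), in shares of 1.18 to 5.77% of the 762 peaks. These 12 searches, the κB consensus included, were not adjusted for their number, and only the κB share was computed under other overlap rules.

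The aged/anti-IL-17A/F-only peaks lay farther from start sites than other peaks of equal strength. No difference was detected in the share of peaks whose middle was intergenic, with an interval of the difference of −4.25 to 3.79 points. Within 1 kb of a start site lay 238 of 762 (31.2%, 28.0 to 34.6%), against 41.1% (39.2 to 43.0%) of the weighted others, a difference of −9.83 points (−13.6 to −6.02). More than 50 kb from any start site lay 135 (17.7%, 15.2 to 20.6%), against 11.1%, a difference of 6.58 points (3.62 to 9.53). By curated transcripts, the middle of the peak was intergenic in 44.9%, intronic in 39.1%, in a 5′ UTR in 10.2% and in a coding exon in 3.81%. For none of these 4 classes did the interval of the difference exclude 0.
The mean GC content of the 500 bp around the summit was 53.7%, against 56.0% (difference −2.25, −3.0 to −1.49), and the ratio of observed to expected CpG was 0.414 against 0.467. Repeat-masked bases made up 10.1% against 8.71% (difference 1.41, 0.509 to 2.31).
The promoter, GC and repeat differences depended on the overlap rule and on the weighting. When a shared peak had to cover 50% of both peaks, 923 peaks counted as aged/anti-IL-17A/F-only, the difference within 1 kb was −0.28 points (−4.0 to 3.44), that in GC was −0.577 (−1.31 to 0.151) and that in repeats 0.736 (−0.0803 to 1.55). Without weighting for strength they were −2.81 points (−6.34 to 0.723), −0.504 (−1.21 to 0.204) and 0.475 (−0.396 to 1.35). With lists of equal number the difference within 1 kb was −5.15 points (−9.59 to −0.712) and that in repeats 0.986 (−0.196 to 2.17), and at a −log10 q of at least 10 that in repeats was 1.92 (−0.0622 to 3.91). For the adult-only peaks, which the exchange of lists would put in this place, the differences were 0.109 points (−2.6 to 2.82), −0.0443 (−0.551 to 0.463) and 0.624 (0.0687 to 1.18).

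**Figure D4:**
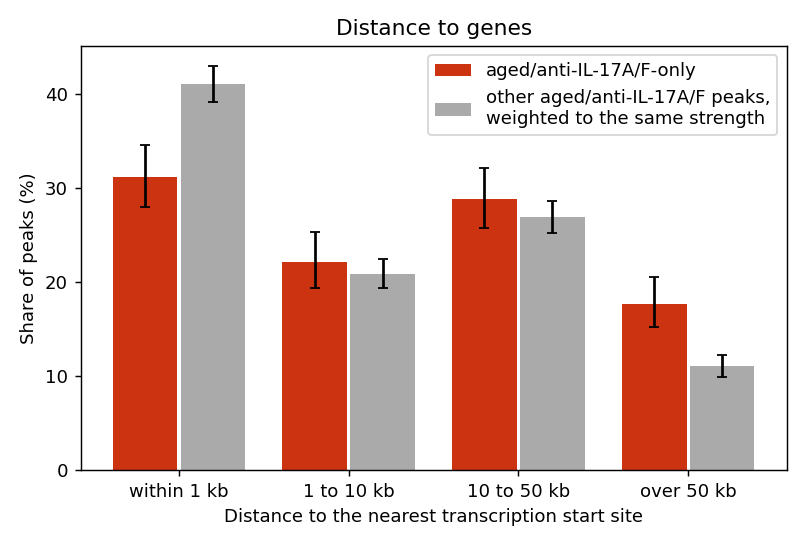
Share of peaks (%) by distance from the middle of the peak to the nearest transcription start site, for the aged/anti-IL-17A/F-only peaks (red) and the other aged/anti-IL-17A/F peaks weighted to the same deciles of fold enrichment (grey), with 95% intervals. Red is below grey within 1 kb (31.2% against 41.1%) and above it beyond 50 kb (17.7% against 11.1%).

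The 5 strongest peaks within 1 kb of a protein-coding start site were those of Akirin1, a nuclear protein (fold enrichment 4.05), Polr1b, a subunit of RNA polymerase I (3.86), Stag1, a cohesin subunit (3.78), Gatd3a (3.77) and Dsc3, the desmosomal cadherin desmocollin 3 (3.72). None of the 5 held a κB match, and neither other list had a peak assigned to any of these genes. Their gaps to the nearest adult peak ran from 36324 bp at Akirin1 to 141044 bp at Dsc3.

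By nearest start site, 647 of the 762 peaks were assigned to 610 protein-coding genes, which are 2.9% of the 21000 annotated, and 115 to genes of other types. For 315 of the 610 genes (51.6%, 47.7 to 55.6%) the adult or aged/IgG control list also had a peak, elsewhere near the gene. The other 295 genes (48.4%) had a peak in no list but the aged/anti-IL-17A/F list. There were 33 genes with 2 or more aged/anti-IL-17A/F-only peaks, of which Cpxm2, Dsp, Mex3c and Ust had 3 each.

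Genes of NF-κB signaling, cytokines, epidermal structure and stress responses were read from 16 lists that together held 552 annotated genes. Of these, 54 (9.78%, 7.58 to 12.5%) had an aged/anti-IL-17A/F-only peak, against 2.9% of all protein-coding genes. Of the 552 genes, 275 had some aged/anti-IL-17A/F peak, and of those 275 the 54 were 19.6% (15.4 to 24.7%), against 16.7% of all 3648 genes with such a peak. At the 54 genes lay 63 peaks, 17 with a κB match, 14 within 1 kb of a start site and 10 within 1000 bp of a peak of another list. For 16 of the 54 genes neither other list had a peak, against 295 of all 610 genes with an aged/anti-IL-17A/F-only peak.

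**Figure D5:**
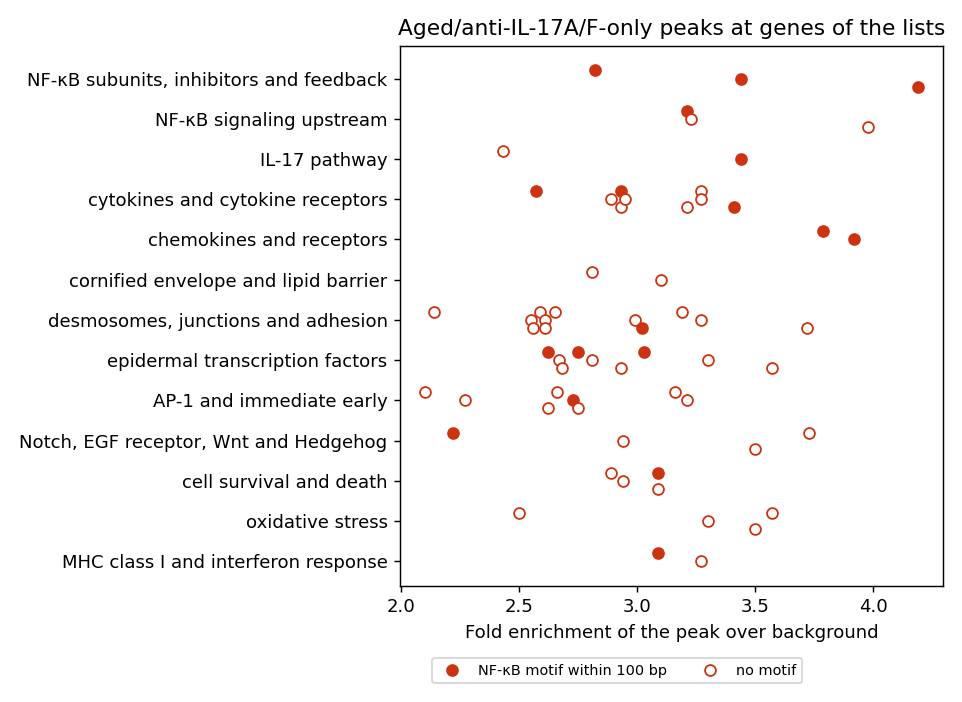
Fold enrichment over the background of the aged/anti-IL-17A/F-only peaks assigned to genes of 13 lists, with 1 point per peak and filled points for peaks with an NF-κB match within 100 bp. Points run from 2.10 at Fosb to 4.19 at Nfkbie, and both chemokine peaks and all 3 peaks at genes of the IκB family are filled.

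Among subunits, inhibitors and feedback genes of NF-κB, 2 of 18 had an aged/anti-IL-17A/F-only peak, both of them of the IκB family. Nfkbie, which encodes the inhibitor IκBε, had 2 peaks in introns, chr17:45557373-45557846 with a fold enrichment of 4.19 and chr17:45557966-45558265 with 2.82. The stronger lay 1439 bp and the weaker 2032 bp from the nearest adult peak, and the pair were 119 bp apart, so they are neighbouring parts of 1 locus that other lists also mark. Nfkbiz, which encodes IκBζ, a nuclear member that acts as a coactivator downstream of IL-17, had a peak of 3.44 at chr16:55788229-55788555, 33746 bp downstream of its start site and 3283 bp from an adult peak. All 3 peaks held a κB match, as printed above.
Of 36 upstream signaling genes 3 had such a peak. Traf3, a brake on the noncanonical pathway, had one of 3.98 at chr12:111159859-111160200. Traf1, an adaptor of TNF receptors, had one of 3.23 at chr2:34977106-34977443, and Ikbkb, the catalytic subunit IKKβ, one of 3.21 at chr8:22712426-22712728. The Ikbkb peak held a κB match and lay 71279 bp from the nearest adult peak. Neither other list had a peak assigned to Ikbkb or Traf1, whereas both had one at Traf3.

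In the IL-17 pathway 2 of 34 genes had an aged/anti-IL-17A/F-only peak, Nfkbiz and Cebpb, the latter a transcription factor induced by IL-17. The Cebpb peak lay 105 bp upstream of the start site in sequence of 77.8% GC, had a low fold enrichment of 2.43 and held no κB match. Of 85 genes in a list of cytokines, their receptors and their signaling proteins 9 had one, with fold enrichments of 2.57 to 3.41. The strongest lay in an intron of Jak1, a kinase of many cytokine receptors (3.41, with a κB match).
Il20rb, a receptor chain for the IL-20 cytokines of keratinocytes, had a peak of 3.27 at its start site without a κB match, and Il6ra, the IL-6 receptor, one of 2.93 in its 5′ UTR. A peak of 3.21 was nearest to Il13, the type 2 cytokine, but lay in an intron of Rad50, 28713 bp upstream of the Il13 start site. Tnfsf18 (GITR ligand) had 2.93 with a κB match and Ifnar2, an interferon receptor chain, 2.57 with a κB match. Stat4, Stat5b and Tnfrsf1a (TNF receptor 1) had peaks of 2.89, 3.27 and 2.95, and those of Stat5b and Tnfrsf1a lay 34 and 394 bp from an adult peak.

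Chemokine genes with such a peak were 2 of 41. Ccl28, an epithelial chemokine that attracts T cells to skin and mucosa, had a peak of 3.79 in an intron at chr13:119631820-119632119 with 2 κB matches, 57844 bp from the nearest adult peak. Ccl21a, the ligand of CCR7, had one of 3.92 at chr4:42780202-42780569 with 1 match, inside an intron of the neighbouring noncoding RNA 4930578G10Rik. Neither other list had a peak assigned to these chemokine genes. Ccl21a has near-identical copies in the genome, so the place of its reads is uncertain.

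Genes of cell adhesion formed the list with the highest share, 9 of 40 (22.5%, 12.3 to 37.5%), against 2.9% of all protein-coding genes. They were 37.5% of the 24 that had any aged/anti-IL-17A/F peak, against 16.7% of all genes with such a peak. The interval overlapped those of the AP-1 list (17.1%, 8.1 to 32.7%) and the epidermal transcription factor list (15.9%, 7.93 to 29.4%). A difference between lists was not tested. The 9 adhesion genes had 12 peaks, 1 of which held a κB match (Pkp3). Dsp, the desmosomal plaque protein desmoplakin, had 3 peaks of 2.56, 2.61 and 3.27, at 32694 and 285 bp upstream and 11599 bp downstream of its start site. The adult list also had a peak assigned to Dsp, and the peak 285 bp upstream lay 1210 bp from an adult peak. Dst, the hemidesmosome linker dystonin, had 2 intronic peaks of 2.61 and 2.65, and neither other list had a peak assigned to Dst or Dsc3.
The plakophilin genes Pkp1 and Pkp3 had intronic peaks of 3.19 and 3.02. Further peaks were those of the desmoglein gene Dsg2 (2.59), the integrin gene Itga3 (2.55) and the plectin gene Plec (2.14). Adult and aged/IgG control peaks also marked Pkp1, Pkp3, Dsg2, Itga3 and Plec. The Plec and Dsg2 peaks lay 132 and 293 bp from an adult peak. None of 25 keratin genes had an aged/anti-IL-17A/F-only peak, although 9 of them had other aged/anti-IL-17A/F peaks. Of 43 genes of the cornified envelope and lipid barrier 2 had one, Rptn (repetin, 3.10) and Alox12b (a barrier lipoxygenase, 2.81).

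Of 44 epidermal transcription factor genes 7 had such a peak. Klf4, a driver of barrier formation, had 2 distal peaks of 3.57 and 3.03, the second with a κB match. Trp63, the regulator of the basal epidermal state, had 2 intronic peaks of 2.81 and 2.67, both without a match. Foxn1, a factor of keratinocyte differentiation, had an intronic peak of 3.30 and no peak in the other lists. Ets2 (2.93, start site), Barx2 (2.75, 204255 bp from its start site), Nfatc1 (2.68, 51137 bp) and Gata3 (2.62, 148461 bp) had peaks in the adult and aged/IgG control lists too. The Barx2 and Gata3 peaks each held a κB match.
Of 35 AP-1 and immediate early genes 6 had one, and all 6 also had adult or aged/IgG control peaks. Fos had 2 (3.21 and 2.27), Fosb 2 (2.62 and 2.10), and Klf10, Klf6, Egr2 and Dusp1 had 3.16, 2.75, 2.73 and 2.66. The Klf6 peak lay 189331 bp and the Egr2 peak 81590 bp from the start site, and the Egr2 peak held a κB match. The weaker Fos peak lay in a coding exon 526 bp from an adult peak and the weaker Fosb peak lay 574 bp from one.

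In the remaining lists, 4 of 42 Notch, EGF receptor, Wnt and Hedgehog genes had such a peak, namely the Notch effector Rbpj (3.73), the Notch inhibitor Numb (3.50), the Notch modifier Lfng (2.94) and the ligand gene Wnt10a (2.22, 2 κB matches, 124 bp from an adult peak). Of 33 genes of survival and death 4 had one, with 3.09 at the cell cycle inhibitor Cdkn2b and at the inflammatory caspase Casp4, 2.94 at Mcl1 and 2.89 at Casp8. The Cdkn2b peak held 2 κB matches. Of 31 oxidative stress genes 3 had one, Gsr (glutathione reductase, 3.57 and 3.30), Prdx6 (3.50) and Prdx1 (2.50), and Gsr and Prdx6 had no peak in the other lists. In a list of 32 genes of MHC class I and interferon responses that also held Tlr5, the flagellin receptor, 2 had such a peak. They were Psmb10, an immunoproteasome subunit (3.27), and Tlr5 (3.09). Of the marker lists, Trp63 was the 1 keratinocyte marker of 8 with such a peak, and 0 of 15 markers of other cells had one.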

How the data were processed

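p65 ChIP–seq peaks of mouse epidermal cells were analysed for 3 conditions (6 samples, 3 of them inputs not analysed here). Per the study's methods, reads were trimmed by the authors (Trimmomatic 0.36 per the submitters' processing notes), aligned to mm10, merged over the 4 mice of a condition, freed of duplicates and downsampled to an equal number of reads per pool. MACS2 peaks were kept at a q of 0.01. Pooling removes the variation between animals, and a weak site can be called in 1 list and missed in another with little difference in signal. The deposited lists give each peak's score, its fold enrichment as a ratio to background, −log10 p and −log10 q values and the summit.

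Overlaps of at least 1 bp, start sites of curated RefSeq transcripts (GRCm38.p6, nearest to the middle of the peak), motifs within 100 bp and GC and repeats within 250 bp of the summit were computed with Python 3.11.15, numpy 2.4.6, pandas 2.3.3 and pysam 0.24.0. Other peaks were weighted to the 762 peaks' counts in 10 bins of fold enrichment, with 95% intervals of the difference. The steps were tested on simulated data. The peaks, gene lists and motifs were chosen with earlier results of these data known. Named are the 10 strongest peaks, the 8 strongest with a κB match, the 5 strongest within 1 kb of a protein-coding start site, those at list genes (1 is not reported here) and the 3 nearest each side of the overlap rule. Alternatives covered thresholds, overlap, list length, weighting, motif and annotation, and an exchange of 2 lists.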

Additional observations from a re-analysis of the deposited data

How the results depend on the processing

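No paired analysis was possible because each condition has 1 pooled list, and for the same reason no replicate could be left out. Of 147 values under 18 settings, 89 stayed in the band set for them, which was a factor of 1.5 for counts, the main value's 95% interval for shares, means and differences, and 1 SD between peaks for fold enrichment. Counts in that band still varied, from 566 to 923 peaks, and the repeat difference stayed in its band while its own interval included 0 with 50% overlap, lists of equal number or a −log10 q of at least 10. The exchange of the list labelled adult with that labelled aged/anti-IL-17A/F, the medians of fold enrichment, and the sequence and position measures at a −log10 q of at least 10 or with peaks within 1000 bp counted as shared were added after the data were seen.

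At a −log10 q of at least 10, 203 peaks remained, with a median fold enrichment of 3.57, a κB share of 40.9% (difference from the weighted others 9.4), 14.8% within 1 kb of a start site (difference −18.8), 50.6% GC (difference −3.55) and 11.9% repeats. With 50% overlap of both peaks, 38.8% lay within 1 kb (difference −0.28) and GC was 55.1% (difference −0.577). With the overlap rule applied anew to lists of equal number, 566 peaks had a median fold enrichment of 3.55 and a κB share of 32.5% (difference 0.461). Of these, 27.9% lay within 1 kb (difference −5.15), and GC was 52.6%. In those lists 13.4% of adult and 16.2% of aged/IgG control peaks were in 1 list only. With the lists exchanged, 3002 peaks gave a κB share of 15.1% (difference −5.4), 41.5% within 1 kb (difference 0.109), 55.9% GC (difference −0.0443) and 9.25% repeats. Without weighting the differences were −12.6 for the κB share, −2.81 within 1 kb, −0.504 for GC and 0.475 for repeats. The κB share was 17.8% within 50 bp, 31.0% within 250 bp, 28.2% with a wider consensus and 59.2% with 1 mismatch allowed (difference −6.7). Counting only peaks within 10 kb of a start site, 358 genes remained. The cause of these changes was not tested. The pools had equal numbers of reads, but the reads behind a peak are unknown, so weak sites absent from a list may have been missed by the threshold.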
